A study of Homo sapiens with 6 samples.

Results

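The genes described here are 34 DNA repair and Fanconi anaemia genes, measured in MCF10A cells with and without an shRNA against FRY. A list of 37 gene symbols covering homologous recombination, the Fanconi pathway, break sensing, the DNA damage checkpoint and a few members of mismatch and base repair was matched to probe sets that name 1 gene. The brightest such probe set stood for each gene. BRCA2, FANCA and FANCD2 were not analysed here, so 34 of the 19775 genes tested are members. The rule takes genes by symbol and uses no measured value of them, but the list was drawn up with earlier results of these data known. MCF10A is an immortalised line of human breast epithelium that does not form tumours. FRY, related to furry of Drosophila, encodes a large protein that binds NDR kinases and microtubules.

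RNA came from 3 samples of MCF10A-shFRY cells, stably transfected with a FRY-targeting shRNA (shFRY), and from 3 samples of MCF10A-CV cells, stably transfected with a non-targeting shRNA (control). There was 1 puromycin-selected clone per construct, and its 3 samples were taken at different passages, so p-values measure the spread between samples of a clone and not that between clones. FRY expression in the selected shFRY clone is stated as about 60% lower than in MCF10A. Both clones had the same medium, which held insulin (10 ug/ml), hydrocortisone (5 ug/ml) and epidermal growth factor (20 ng/ml), and were harvested at 70% confluence. No sample was treated with a DNA-damaging agent, per the labels. Values are log2 signals of 1-colour arrays, and a difference is always shFRY minus control. A gene was said to rise or fall when its limma p-value, adjusted over all 19775 genes by Benjamini and Hochberg, was under 0.05.

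Fanconi anaemia genes act in the repair of crosslinks between DNA strands. A core complex of FANC proteins attaches ubiquitin to the FANCD2-FANCI pair at a stalled replication fork, after which the crosslink is cut out and the resulting break is mended by homologous recombination with BRCA1, BRCA2 and their partners. The MRN complex senses broken ends and activates the kinase ATM, while ATR and its target CHEK1 respond to stalled forks. Many of these genes are expressed mainly in cells that replicate their DNA. In mammary epithelium BRCA1, BRCA2 and PALB2 are known as breast cancer susceptibility genes.

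The groups differed broadly, in cell type markers too. Across probe sets, Pearson's r was 0.992 to 0.995 for samples of the same group and 0.972 to 0.978 for samples of different groups. General epithelial markers had mean signals of 8.16 to 8.25 in control and 8.35 to 8.49 in shFRY samples, and mammary basal markers 9.38 to 9.43 and 10.33 to 10.53. Of the 10 general epithelial markers 3 fell and 3 rose, from CLDN4 at 39.0% of control to CLDN1 at 10.6-fold its control level, and KRT19 was dim in both groups (means 3.06 and 3.09). Of the 6 basal markers 5 rose. The mean over 10 fibroblast markers was 3.76 to 3.94 in control and 3.14 to 3.34 in shFRY samples. Of these 3 fell and 2 rose: DCN went from a mean of 7.14 to 4.35, LUM from 5.16 to 1.22 and COL3A1 from 5.02 to 3.20. Of 10 endothelial markers (means 3.04 to 3.20 and 2.94 to 3.11) 1 fell, KDR, from 5.80 to 3.35, and 1 rose, while PECAM1 was at 7.54 and 7.40. Of 10 adipocyte markers (2.85 to 3.01 and 3.12 to 3.19) 2 rose, LPL among them from 6.05 to 7.44, and of 8 immune markers (means no higher than 2.24 in any sample) 1 fell. The part of these marker changes in the results for the members was not tested. Of the 4 FRY probe sets, 1 fell (204072_s_at, -0.75, limma adjusted p = 0.0223) and the others lay between -0.49 and -0.32. That call was lost without control sample 1 or 3 or shFRY sample 1 or 3 (limma adjusted p = 0.0650, 0.0539, 0.0712 and 0.0502). The beta-actin difference between 3' and 5' probe sets, a measure of RNA length, was 2.33, 2.52 and 2.71 in control and 2.88, 2.89 and 2.84 in shFRY samples (exact permutation test, two-sided, p = 0.1; no lower p is possible with 3 samples a group). It was higher in every shFRY than in every control sample, but was nearly equal among the shFRY samples. The same difference for GAPDH had means of -0.09 in control and -0.07 in shFRY samples (SD 0.01 and 0.03, n = 3 each) and overlapped between the groups (exact permutation p = 0.4).

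Most of the DNA repair and Fanconi genes had lower signal in shFRY cells, by modest amounts. Of the 34 members, 11 fell and 1 rose, where 16% of all genes fell and 13.7% rose (29.8% in either direction). The median difference was -0.37 over the members and 0.03 over all genes, and 28 of 34 members (82.4%) lay below 0, against 46.4% of all genes. The members are brighter than most genes. Over the 9889 genes at or above the median signal the median difference was -0.06, and about 55% lay below 0. A separate limma fit, with p adjusted over only those genes, passed a larger share of its genes in both directions. In that fit 31.5% of those genes and 16 of their 33 members (48.5%) were called lower, and 24.5% and 3 (9.09%) higher. All other calls in the text use the adjustment over 19775 genes. Each role below holds at most 7 measured members, so its count is a description to be read against the 16% and 13.7% of all genes. In 20 members every shFRY sample lay below every control sample, and in 3 every shFRY sample lay above (22.4% and 21.9% of all genes, 44.2% in either direction). Of the 3171 genes that fell, 3154 had no overlap, so a lack of overlap adds little where a gene fell.

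**Figure D1:**
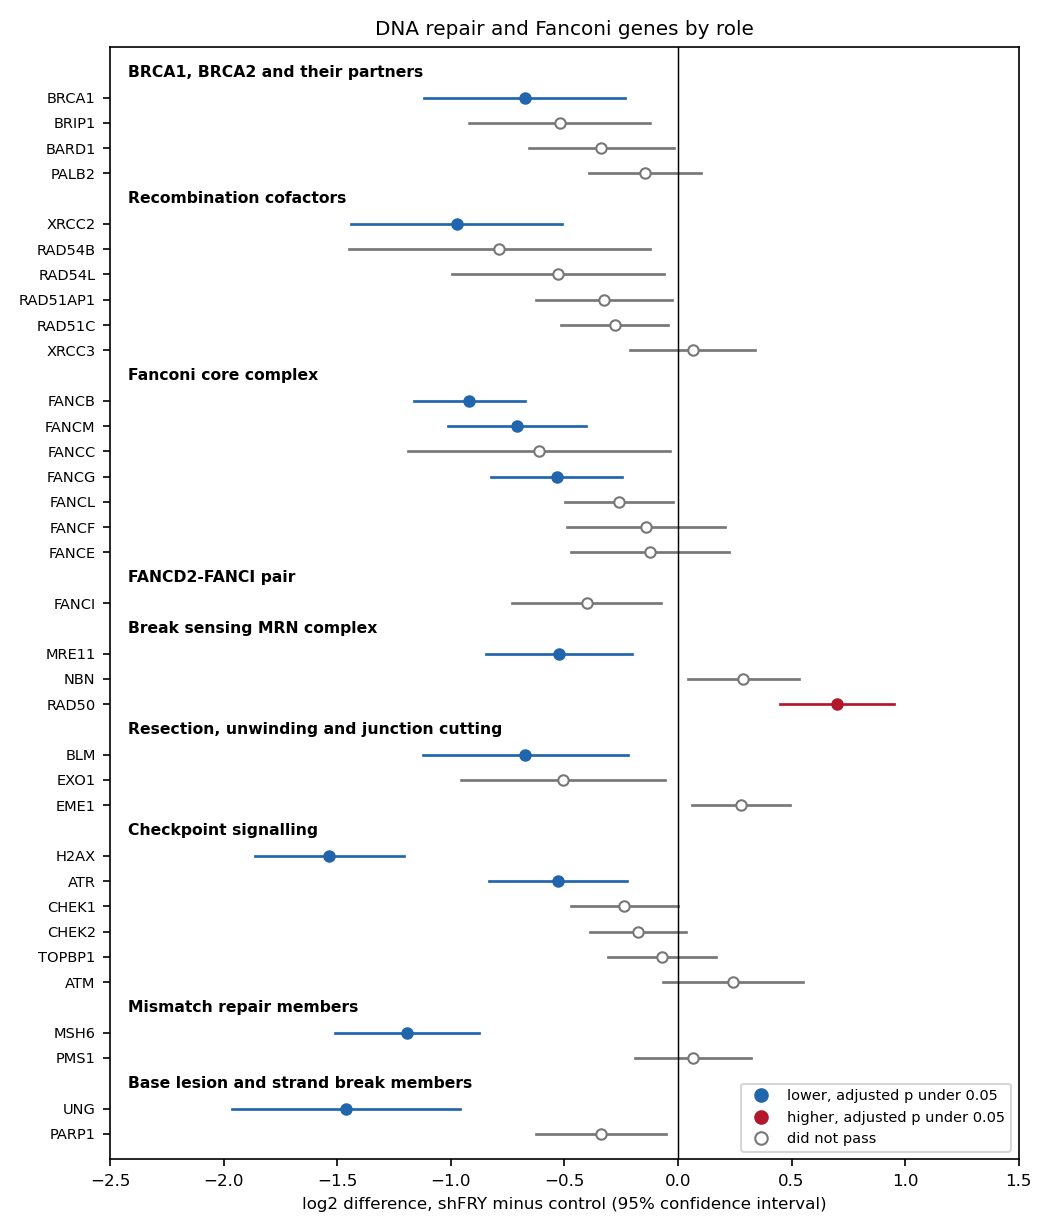
Log2 difference (shFRY minus control, 3 samples each) of the 34 members on the horizontal axis, grouped by role, with the 95% confidence interval from limma as a line. Filled symbols passed an adjusted p of 0.05: 11 members lie to the left of 0, led by H2AX at -1.53, and RAD50 lies to the right at 0.70.

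Of the 22 members that did not pass, 14 had an unadjusted p under 0.05, 12 of them lower and 2 higher, with limma adjusted p-values from 0.0537 to 0.124. Among all genes, including the 29.8% that passed, 39.7% had an unadjusted p under 0.05. Of all 34 members, including those that passed, 8 had an unadjusted p of 0.05 or more. A member outside the threshold is thus not shown to be unchanged. The number that fell moved with the samples used, as did the share of all genes that fell. It was 6 without control sample 2 and 7 without control sample 3, against 12.6% and 12.1% of all genes. When any other sample was left out it was between 8 and 16, against 12.4% to 15.8% of all genes. It was 20 with the trend and robust options of eBayes (17.8% of all genes). It was 6 of 27 when _s_at and _x_at probe sets were not used (14% of all genes). With the beta-actin difference added to the fit as a covariate, 2 members fell and 0 rose, against 2.43% and 2.76% of all genes, while the median difference of the members was -0.33. Those 2 members were FANCB and H2AX (limma adjusted p = 0.0308 and 0.0391).

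**Figure D2:**
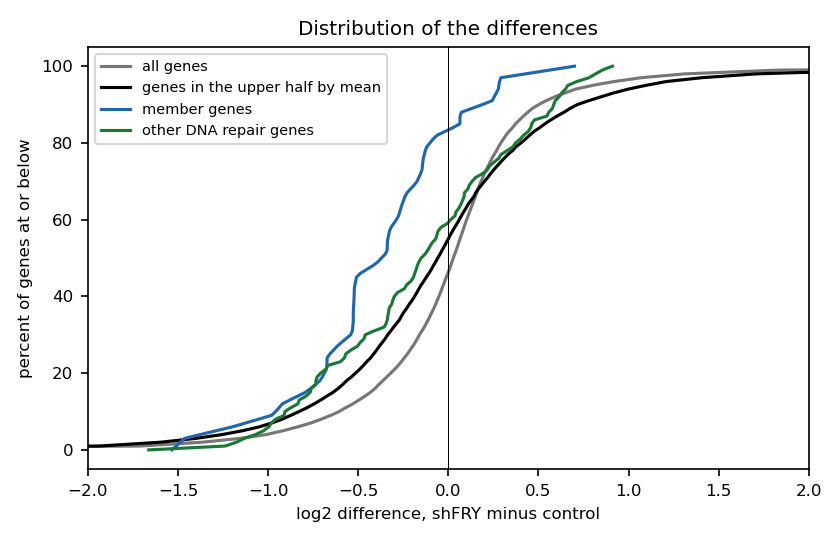
Percent of genes (vertical axis) whose log2 difference, shFRY minus control, lies at or below the value on the horizontal axis. The curve of the 34 members lies to the left of the curves of all genes and of the brighter genes over most of its length and crosses 50% at -0.37, whereas the curve of 114 other DNA repair genes crosses 50% at -0.15.

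H2AX had the largest fall of the members. It encodes the histone variant that ATM and ATR phosphorylate around DNA breaks. Its signals were 9.20, 9.03 and 9.17 in control samples 1 to 3 and 7.35, 7.58 and 7.87 in shFRY samples 1 to 3. All shFRY samples lay more than 1 log2 unit below all control samples. The difference was -1.53 (SE 0.14, limma adjusted p = 0.000152), which puts shFRY at 34.5% of control. Its probe sets 205436_s_at and 212524_x_at fell as well, by 1.53 and 0.51 on the log2 scale, and the fourth, 212525_s_at, is dim and stood at 0.06. All of its probe sets are of the _s_at or _x_at kind, which can match more than 1 transcript. Of the other checkpoint genes, ATR, the kinase of stalled forks, fell from 7.60, 7.62 and 7.68 to 6.95, 6.98 and 7.38 (-0.53, SE 0.13, limma adjusted p = 0.0181). The groups of ATR did not overlap, but its call was lost without any single sample other than shFRY sample 3 (limma adjusted p = 0.0517 to 0.0622), and its second probe set, 209902_at, stood at -0.28.

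The remaining checkpoint members did not pass. CHEK1, the effector kinase of ATR, stood at -0.24 (limma adjusted p = 0.124) and CHEK2, that of ATM, at -0.18 (0.193), both without overlap between the groups. The other probe sets of CHEK1 lay between -0.21 and 0.008, and at each of them the groups overlapped. TOPBP1, an activator of ATR, was at -0.07 (0.658) and ATM at 0.24 (0.223), with overlapping groups. The probe sets of ATM did not share a direction: 212672_at was at -0.29 with all shFRY samples below all control samples, and the other 5 lay between 0.02 and 0.24.

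The subunits of the MRN complex differed in direction. MRE11, its nuclease, had signals of 8.28, 8.46 and 8.41 in control and 7.59, 7.91 and 8.09 in shFRY samples, a fall without overlap (-0.52, SE 0.14, limma adjusted p = 0.0231). Its call was lost without control sample 2 or 3 or shFRY sample 1 (0.0788, 0.0713 and 0.0505), and its other 2 probe sets are dim and stood at 0.13 and -0.11. RAD50, the ATPase that bridges broken ends, was the only member to rise. It went from 9.03, 9.24 and 9.10 to 9.95, 9.74 and 9.77 (0.70, SE 0.11, limma adjusted p = 0.00190), or 162% of control, and its probe set 209349_at rose by 0.84. The groups of RAD50 did not overlap at either probe set, while the third, 238656_at, stood at 0.05. NBN, which couples the complex to ATM, was at 0.29 and did not pass (limma adjusted p = 0.0789). Its 5 probe sets lay between 0.20 and 0.29, and in each of them all shFRY samples were above all control samples.

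The promoters of H2AX, with the largest fall, and RAD50, the only member that rose, are shown because the genes stand at the ends of the range. The 250 bases before the RefSeq start are shown for both (GRCh38.p14), H2AX at chr11:119095466-119095715 on the minus strand and RAD50 at chr5:132556727-132556976 on the plus strand. Capitals mark CCAAT on either strand, the letters bound by NF-Y, of which H2AX has 4 and RAD50 0; neither stretch holds the E2F letters given further on. Among other members that fell, BLM, BRCA1, FANCM, MRE11, MSH6 and UNG held CCAAT in a window, and XRCC2, FANCB, FANCG and ATR had 0. Of the 20 members with a window that did not fall, 10 held it, among them XRCC3 (0.06) with 5. The stretches are 60.8% and 66% G and C.
H2AX: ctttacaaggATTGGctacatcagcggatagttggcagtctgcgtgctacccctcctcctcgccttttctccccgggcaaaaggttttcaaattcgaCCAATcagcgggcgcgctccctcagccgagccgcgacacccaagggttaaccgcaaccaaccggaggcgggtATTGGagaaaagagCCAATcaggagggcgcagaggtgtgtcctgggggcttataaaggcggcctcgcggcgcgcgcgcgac
RAD50: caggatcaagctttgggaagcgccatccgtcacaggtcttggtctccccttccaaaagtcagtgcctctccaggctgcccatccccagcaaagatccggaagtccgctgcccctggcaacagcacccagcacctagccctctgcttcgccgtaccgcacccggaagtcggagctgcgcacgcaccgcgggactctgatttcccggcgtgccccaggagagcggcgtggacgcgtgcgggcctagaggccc

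At their brightest probe sets all 7 measured genes of the Fanconi core complex had a lower mean in shFRY samples, as did 46.4% of all genes. Of the 7, 3 fell. FANCB, a core subunit that binds FANCL, had signals of 6.13, 6.30 and 6.31 in control and 5.43, 5.36 and 5.21 in shFRY samples. The shFRY samples were close together and far below the control samples, with a difference of -0.92 (SE 0.11, limma adjusted p = 0.000442). All 4 probe sets of FANCB fell, by 0.62 to 0.92 on the log2 scale. FANCM, the DNA translocase that brings the core complex to chromatin, fell from 7.58, 7.61 and 7.47 to 6.68, 6.75 and 7.11 (-0.71, SE 0.13, limma adjusted p = 0.00471), without overlap. Of its other 3 probe sets, 2 fell and the third was at -0.64. FANCG, a scaffold subunit, fell from 7.34, 7.40 and 7.26 to 6.56, 6.89 and 6.94 (-0.53, SE 0.12, limma adjusted p = 0.0133), and missed the threshold without control sample 2 (0.0509).

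The other core complex genes did not pass. FANCL, the ubiquitin ligase itself, had tight control values of 8.69, 8.65 and 8.69 and shFRY values of 8.28, 8.54 and 8.43, all lower (-0.26, limma adjusted p = 0.0969). FANCC was dimmer and more variable (-0.61, 0.108), with shFRY sample 2 inside the range of the control samples. Its other probe sets are dim and stood at 0.15 and 0.13. FANCE and FANCF stood at -0.12 and -0.14 (0.590 and 0.540), with overlap, and were at 0.030 and 0.012 without shFRY sample 2. The other probe set of FANCF, 222713_s_at, was at 0.07, also with overlap. FANCI, the measured partner of the FANCD2-FANCI pair, was at -0.40 (limma adjusted p = 0.0679) at its brightest probe set, where shFRY sample 3 reached 8.61 against 8.64 in the lowest control sample. Its other probe sets, 223785_at and 213007_at, fell by 0.58 and 0.69 on the log2 scale.

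Among BRCA1 and its partners 1 of 4 measured genes fell, and differences were larger at second probe sets. BRCA1, a ubiquitin ligase subunit and recombination mediator, had control signals of 6.17, 6.16 and 6.22 and shFRY signals of 5.05, 5.59 and 5.88. The control samples were nearly equal, and the shFRY samples were spread over a wider range below them (-0.67, SE 0.19, limma adjusted p = 0.0304). Its call was lost without any 1 control sample or without shFRY sample 2 (0.0556 to 0.0854), and its other probe set, 211851_x_at, fell by 0.98. BARD1, the ring-finger partner of BRCA1, was at -0.34 (limma adjusted p = 0.107), whereas its probe sets 205345_at and 242655_at fell by 0.48 and 1.32. BRIP1, the helicase that binds BRCA1, was at -0.52 (limma adjusted p = 0.0537) with all shFRY samples below the control samples, and its dimmer probe set 221703_at fell by 1.40. PALB2, which links BRCA1 to BRCA2, was at -0.15 (limma adjusted p = 0.353) with overlap.

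Of the recombination cofactors, 1 of 6 fell (16.7%, near the 16% of all genes). XRCC2, which acts in homologous recombination, went from 6.72, 6.81 and 6.46 to 5.22, 5.85 and 5.99, a fall without overlap to 50.9% of control (-0.97, SE 0.20, limma adjusted p = 0.00766). Its only probe set is of the _x_at kind. RAD54B and RAD54L, motor proteins of homologous recombination, were at -0.79 and -0.53 (limma adjusted p = 0.0758 and 0.0892). Their shFRY samples were widely spread: RAD54B had 4.37, 5.33 and 5.54, and RAD54L had 5.21, 5.65 and 6.10, the last of which was above its lowest control sample. A further 2 genes of this group stood at -0.32 and -0.28 and did not pass (limma adjusted p = 0.100 and 0.0747). XRCC3 was at 0.06 (0.734), and with group means of 3.24 and 3.31 it was the only member dimmer than the median gene.

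Of the genes for resection, unwinding and junction cutting, 1 of 3 fell. BLM, the Bloom syndrome helicase, went from 7.31, 7.54 and 7.25 to 6.26, 6.77 and 7.06 (-0.67, SE 0.20, limma adjusted p = 0.0338). The groups did not overlap, but the call was lost without any single sample other than shFRY sample 3 (0.0567 to 0.112). EXO1, an exonuclease of resection and mismatch repair, was at -0.51 (limma adjusted p = 0.0886). EME1, which forms a junction-cutting nuclease with MUS81, had probe sets in opposite directions. The brighter, 234464_s_at, was at 0.28 and did not pass (limma adjusted p = 0.0567), and 234465_at fell by 0.63.

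**Figure D3:**
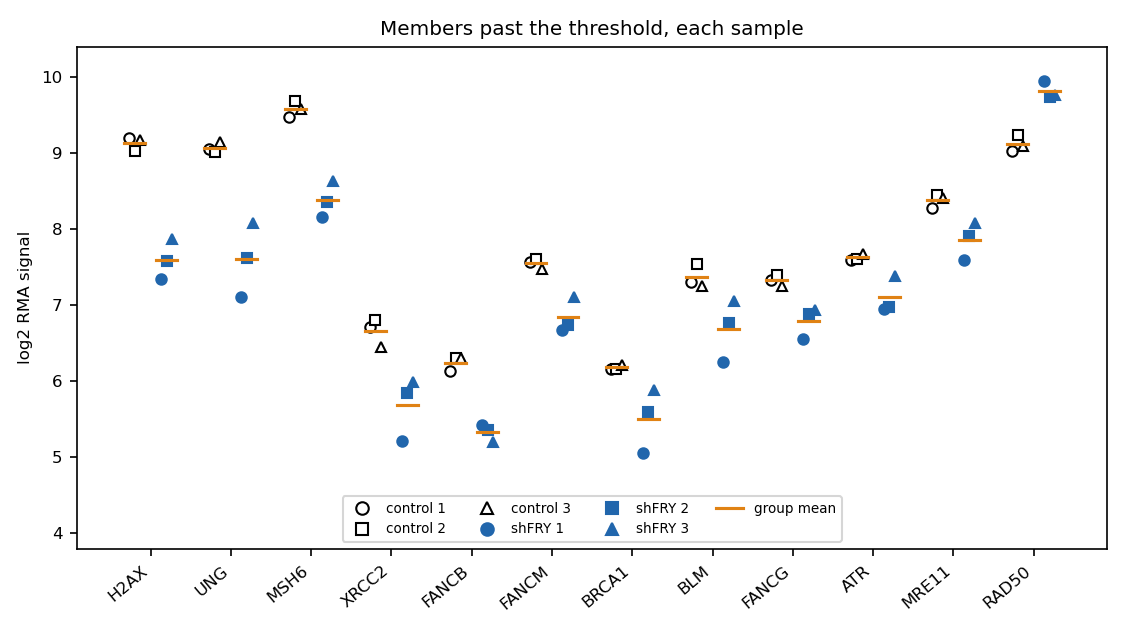
Log2 signal of the 12 members that passed the threshold in each of the 6 samples, with open symbols for control, filled symbols for shFRY and a bar at each group mean (n = 3). No group overlaps for these genes, and shFRY sample 1 is the lowest shFRY sample in 10 of the 11 genes that fell.

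The mismatch repair gene MSH6 and the base repair gene UNG were the other members with falls past 2-fold. MSH6 encodes a subunit of the complex that recognises single mismatches. Its signals went from 9.47, 9.69 and 9.58 to 8.17, 8.35 and 8.64, without overlap (-1.19, SE 0.14, limma adjusted p = 0.000425), and its probe set 211450_s_at fell by 1.16, while its other 2 probe sets are dim and did not pass. UNG encodes the glycosylase that removes uracil from DNA. It went from 9.06, 9.01 and 9.15 to 7.11, 7.63 and 8.09, or 36.3% of control (-1.46, SE 0.22, limma adjusted p = 0.00155). Its control samples were close together, and its shFRY samples were widely spread, all below them. PARP1, the sensor of strand nicks, was at -0.34 (limma adjusted p = 0.0753) without overlap. PMS1, a relative of PMS2 with a minor part in mismatch repair, was at 0.07 (0.708) at its brightest probe set, while 236609_at fell by 1.22. When each of the 6 samples was left out in turn, the calls of H2AX, MSH6, UNG, XRCC2, FANCB, FANCM and RAD50 were kept in all 6 fits.

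Over all probe sets the members gave much the same picture. The 34 members have 79 probe sets, of which 27 fell and 2 rose, where 12.2% and 10.9% of 54613 probe sets did (23.1% in either direction). Probe sets that fell belonged to 16 members, and those that rose to RAD50, so no member had calls in both directions. BARD1, BRIP1, FANCI, EME1 and PMS1 were without a call at their brightest probe set and had another that fell. Of the 7 genes that fell and have several probe sets, 5 had a second that fell; MRE11 and ATR did not.

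**Figure D4:**
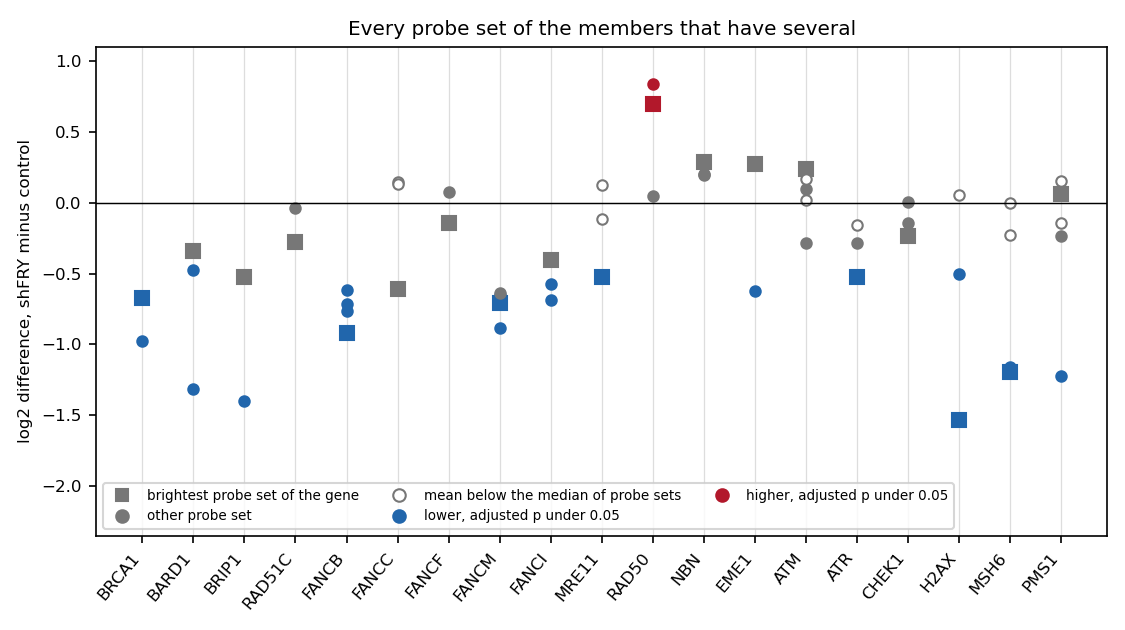
Log2 difference, shFRY minus control, of every probe set of the 19 members that have several, with squares for the brightest probe set of a gene and open symbols for probe sets below the median signal. The H2AX, MSH6, FANCB and RAD50 probe sets above the median signal lie on one side of 0, and EME1, ATM and PMS1 have probe sets on both sides.

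The falls were uneven across the shFRY samples. The median of the 34 members, each relative to its control mean, was -0.57 in shFRY sample 1, -0.40 in sample 2 and -0.18 in sample 3, and -0.03, 0.06 and -0.01 in the control samples. shFRY sample 1 was the lowest of the shFRY samples in 25 of 34 members (73.5%) and sample 3 the highest in 24 (70.6%), against 35% and 37.1% of all genes and 45.5% and 56.1% of all genes that fell. The SD was larger among shFRY than among control samples in 27 of 34 members (79.4%), against 58.6% of all genes. The labels do not say which passage each sample came from, and the part of passage in this spread was not tested.

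Genes in separate lists for S phase and mitosis moved in the same samples. Of 19 S phase genes 16 fell and 0 rose, with a median difference of -1.51, and the cyclin E genes CCNE1 and CCNE2 led them at -2.80 and -3.88. Their medians by sample were -1.67, -1.52 and -0.96 in shFRY samples 1 to 3, so sample 3 was again nearest to control. Of 19 mitosis genes 10 fell and 0 rose, with a median of -0.40. Among 19 E2F and DREAM regulators of cell cycle transcription, 6 fell and 2 rose (median -0.06), and E2F8 and E2F2 fell most, by 1.77 and 1.69. E2F8 was dim, with means of 4.21 in control and 2.44 in shFRY samples. The counts of these lists are to be read against the 16% of all genes that fell and the 13.7% that rose. In the fit over genes at or above the median signal those shares were 31.5% and 24.5%, and 31.6% of the E2F and DREAM regulators fell. In RNA from whole cultures, fewer cells in S phase and less RNA per cell cannot be told apart.

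**Figure D5:**
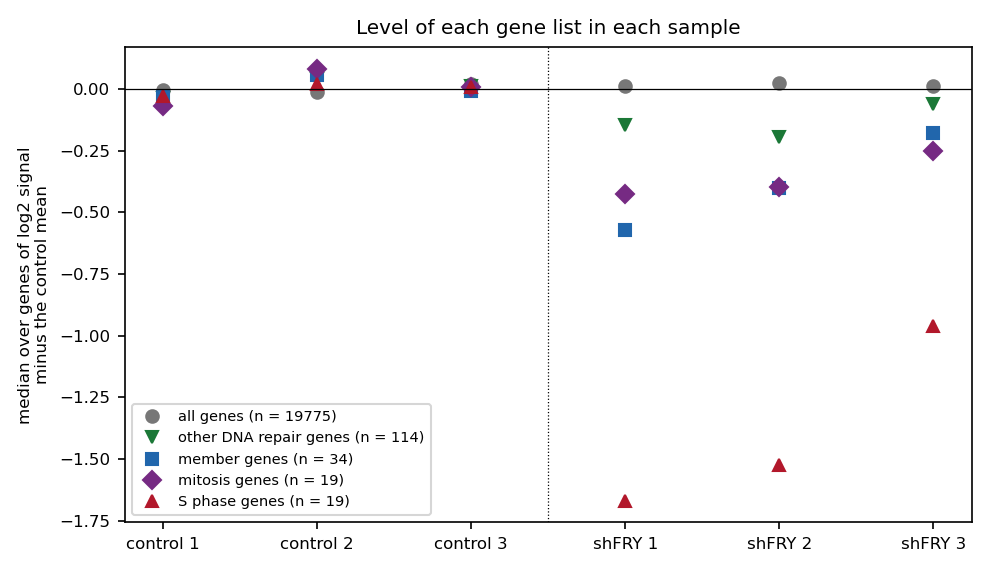
Median over the genes of a list of the log2 signal minus that gene's control mean (vertical axis) in each of the 6 samples. The members stand at -0.57, -0.40 and -0.18 in shFRY samples 1 to 3, between the S phase genes and the 114 other DNA repair genes, and all genes stay near 0.

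Other DNA repair genes, from lists that hold no member, were mixed. Of 114 measured, 38 fell and 22 rose (33.3% and 19.3%, against 16% and 13.7% of all genes), with a median difference of -0.15. In the fit over genes at or above the median signal, 38 of 107 fell and 25 rose, against 31.5% and 24.5% of those genes. The counts of single lists below are to be read against these shares. The medians of the 114 genes in shFRY samples 1 to 3 were -0.15, -0.19 and -0.06. With the beta-actin covariate 3 of the 114 fell and 0 rose (2.43% and 2.76% of all genes). Of 14 other Fanconi pathway genes 7 fell and 1 rose, among them UHRF1 (-1.25) and UBE2T, the ubiquitin-conjugating enzyme of the core complex (-1.18). Of 20 other homologous recombination genes 6 fell and 3 rose, with the nuclease gene DNA2 at -0.91 and RMI2, a partner of BLM, at -0.77. The call of DNA2 was lost without control sample 1 or 2 or shFRY sample 1 or 2 (limma adjusted p = 0.0963, 0.115, 0.0801 and 0.0525). Of 17 other checkpoint genes 8 fell and 2 rose, led by CLSPN, the adaptor between ATR and CHEK1 (-1.66), and TELO2 (-1.01).

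Of 17 nucleotide excision repair genes 5 fell and 5 rose, and the largest differences were those of GTF2H5 (-1.04) and ERCC2 (-0.90). Of 14 end joining genes 4 fell and 2 rose, with the ligase gene LIG4 rising by 0.82 and SHLD1 falling by 0.76. SHLD1 was at -0.24 with its probe sets averaged and at -0.51 without _s_at and _x_at probe sets, and passed in neither (limma adjusted p = 0.177 and 0.103). It also lost its call without control sample 1 or 3 or shFRY sample 3 (limma adjusted p = 0.0809, 0.0755 and 0.0628). Of 20 base excision repair genes 6 fell and 4 rose, and the flap nuclease gene FEN1 (-1.15) and the ligase gene LIG1 (-0.99), both also used in replication, fell most. Of 10 translesion synthesis genes 2 fell and 3 rose, with the polymerase genes POLH at -1.10 and POLK at 0.91. Another probe set of POLK stood at 0.25 and did not pass. Both measured genes of the other mismatch repair list rose, MLH3 by 0.75 and MSH3 by 0.46, although another MSH3 probe set fell by 0.64. The MSH3 call was lost without control sample 1 or 3 or shFRY sample 1 or 2 (limma adjusted p = 0.103, 0.0599, 0.0999 and 0.0644).

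E2F letters were looked for in the promoters because E2F factors are known to drive S phase genes. RefSeq windows from 250 bases before to 50 after a start were listed for 31 of the 34 members. Of these, 6 (19.4%, exact 95% interval 7.45% to 37.5%) held TTTCCCGC, TTTCGCGC, TTTGCCGC or TTTGGCGC on either strand. The same letters were in windows of 824 of 15384 genes on the array (5.36%), which were not matched to the members by signal or G and C content. Counted by window, 6 of 43 held these letters, against 4.07% of 21490. The matches fell in 3 of the 11 members that fell (MSH6, UNG and XRCC2) and in 3 of the other 20 (EXO1, FANCC and TOPBP1). CCAAT was in a window of 17 members (54.8%, against 41.7% of genes), 7 of the 11 that fell and 10 of the other 20, and TTTGAA or TTTAAA, forms of the CHR element of cell cycle promoters, in 7 (22.6%, against 24.0%). Matches of different motifs may overlap, and a match is no evidence of binding.

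Each E2F match is shown with 10 bases on either side, on the strand of the gene, with the matching letters in capitals (RefSeq, GRCh38.p14). The positions of the first capital from the start are +5 in EXO1, -46 and -172 in FANCC, +4 in MSH6, -7 in TOPBP1, -63 in UNG, counted from the second of its 2 listed starts, and +22 in XRCC2. EXO1, FANCC and MSH6 also have several listed starts, and their positions are counted from the start whose window held the match. The stretches are at chr1:241848198-241848225 (EXO1, plus strand), chr9:95317738-95317765 and chr9:95317864-95317891 (FANCC, minus), chr2:47783138-47783165 (MSH6, plus), chr3:133661931-133661958 (TOPBP1, minus), chr12:109098099-109098126 (UNG, plus) and chr7:152676103-152676130 (XRCC2, minus).
EXO1: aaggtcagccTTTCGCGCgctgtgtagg
FANCC (-46): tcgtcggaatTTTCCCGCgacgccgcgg
FANCC (-172): cggggcttccGCGCGAAAccgggaacac
MSH6: tccccccagaTTTCCCGCcagcaggagc
TOPBP1: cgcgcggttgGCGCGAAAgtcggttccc
UNG: agggaggtttTTTGCCGCgaaaagacca
XRCC2: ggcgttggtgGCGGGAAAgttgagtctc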

How the data were processed

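Total RNA (40 ng per sample, per the labels' protocols) was amplified, labelled with biotin and hybridised to 1-colour arrays, with 1 array for each of the 6 samples. RMA gave the deposited log2 values, per the submitters' processing notes, and its version and settings were not given in the sources used here. No further normalization was applied. Of 54675 probe sets, 41091 name 1 gene in the platform annotation, with symbols updated through Entrez IDs to RefSeq (GRCh38.p14).

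The brightest probe set by mean over the 6 samples stood for each of 19775 genes. Groups, taken from the sample titles, were compared in R 4.3.3 through lmFit and eBayes of limma 3.58.1 (no trend, no filter), and a second fit covered the 54613 probe sets other than controls. Each fit had 4 residual degrees of freedom, and precision is limited by the few arrays. The scripts were tested on simulated data. Per-sample values are given for members past the threshold, and up to 2 genes for each other list. The members, lists and tests were chosen with earlier results of these data known.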

Additional observations from a re-analysis of the deposited data

How the results depend on the processing

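The share of all genes called in the same direction and fit is given in brackets. The number of members that fell, 11 (16%), became 20 with eBayes trend and robust options (17.8%). It was 6 of 27 without _s_at and _x_at probe sets (14%), and 2 with the beta-actin covariate (2.43%). The number that rose, 1 (13.7%), became 2 with each sample centred on its median (15%) and 3 with trend and robust options (14.6%). It was 3 among genes at or above the median signal (24.5%), and 0 with the covariate (2.76%). With the covariate, which moves with the groups, 1026 of all genes passed instead of 5889. In that fit 3 other DNA repair genes fell and 0 rose (2.43% and 2.76% of all genes). Without _s_at and _x_at probe sets 14 of 89 other DNA repair genes rose (11.7% of all genes). Leaving out 1 sample at a time gave 6 to 16 members that fell, against 12.1% to 15.8% of all genes. In these fits 4503 to 5766 genes passed in all. The median difference of the members stayed between -0.50 and -0.28 in all 15 alternatives. With the replicate number as a block, 12 members fell and 1 rose, against 14.7% and 12.2% of all genes. Same-numbered samples did not deviate together over all genes (r = -0.002 to 0.007). Whether they were handled together cannot be told from these values.

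Directions turned for a few genes. With probe sets averaged by gene EME1 was at -0.17, PMS1 at -0.28 and MSH3 at -0.11. Once _s_at and _x_at probe sets were left out, other probe sets represented FANCC (0.15), MRE11 (0.13), EME1 (-0.63), ATM (-0.29), PMS1 (-1.22) and MSH3 (-0.64). PALB2 was at 0.0083 with the covariate. With 1 sample left out XRCC3 ranged from -0.050 (control sample 2) to 0.13, FANCE from -0.23 to 0.030 and FANCF from -0.28 to 0.012 (both turned by leaving out shFRY sample 2), and PMS1 from -0.020 (shFRY sample 3) to 0.14. Where no other probe set or sample is named, the cause was not tested.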
